A study of Homo sapiens with 12 samples.

Results

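A set of 9 textbook glucocorticoid target genes was measured in MDA-MB-231 cells that had been kept without added hormone. The 10 genes were taken by symbol: FKBP5, TSC22D3, PER1, KLF9, SGK1, ERRFI1, CEBPD, ZBTB16, TFCP2L1 and SCNN1A. Values were found for 9 of them among the 19907 gene symbols of the series, and ZBTB16 was not analysed here. MDA-MB-231 is an established human triple-negative breast cancer line that carries the glucocorticoid receptor (GR). The wt-GR cells were a non-targeted clone recovered from the CRISPR-treated population, and the S134A-GR cells were a clone in which a serine of GR had been changed to alanine (S134A) on both alleles, together with a change in the guide's PAM. Each line is 1 clone, so effects of the mutation and differences between clones cannot be told apart. All cells spent 18 h in medium with 1% DCC (charcoal-stripped serum, which is depleted of steroids) before a 6 h exposure to vehicle or to 10 ng/mL TGFβ1. The design had 3 libraries in each of 4 groups, and no library came from cells given dexamethasone or another GR ligand. The labels do not say that replicates were separate cultures, so p-values measure the spread between these libraries.

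GR sits in the cytoplasm in a complex with HSP90 and its co-chaperones until a glucocorticoid binds it, and then moves to the nucleus, where it binds DNA as a dimer at palindromic glucocorticoid response elements or is tethered to other factors. The genes described here include some that are often used to read out its activity. They encode brakes on the receptor and on growth factor signaling (FKBP5, TSC22D3, ERRFI1), transcription factors and a clock repressor (PER1, KLF9, CEBPD, TFCP2L1), and a kinase and a channel subunit that control sodium uptake (SGK1, SCNN1A). Several are also controlled by other pathways, among them the clock, growth factors and TGFβ1.

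Recovered library totals ranged from 56362036 to 129832227 reads, and a level of 3 reads, taken as the floor of detection, corresponded to 2.15 to 4.89 normalized counts. All totals exceed the average depth per sample that the study states. Whether the mates of a read pair were counted separately is not given in the sources used here. The lowest count of reads behind any value of the 9 genes was 60, for SCNN1A in S134A-GR cells under TGFβ1, so none was near that floor. The intended line was checked by its markers: VIM (vimentin) was at 419832 normalized counts or more in every library, whereas CDH1 (E-cadherin) did not exceed 12.5 and ESR1 (estrogen receptor) did not exceed 7.32. CD44, EGFR, AXL and KRT18, the other markers set as present, were at 13848 or more in every library. ERBB2 (HER2), set as low or absent, went the other way, at 7229 to 10589 normalized counts. PGR, also set as low or absent, was not analysed here. NR3C1, which encodes GR, was itself lower in S134A-GR cells by 0.41 on the log2 scale under vehicle (adjusted p = 0.00012) and by 0.31 under TGFβ1 (adjusted p = 0.00134), and the part of this difference in the values of the target genes was not tested. These are RNA values. By western blot, the study reports total GR protein to be equal between its wt-GR and S134A-GR lines. TGFβ1 had acted in both lines: SKIL, a SMAD target that encodes a feedback repressor of SMAD signaling, rose by 1.62 on the log2 scale in wt-GR and by 1.51 in S134A-GR cells. The response was not equal for every gene of the treatment check, since PMEPA1, another SMAD target, rose by 2.90 in wt-GR and by 2.18 in S134A-GR cells (difference of responses −0.72, adjusted p = 0.000909). In bulk RNA, fewer cells that express a gene and less RNA per cell cannot be told apart.

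Promoter sequence is shown for 4 of the genes, ERRFI1 and TFCP2L1 because they differed most between the lines among the 7 genes with an entry, PER1 because it was the 1 gene higher in S134A-GR cells, and FKBP5 as an abundant gene with no call in any comparison. The sequences are from RefSeq (GRCh38.p14), are written 5′ to 3′ on the minus strand, on which all 4 genes lie, and hold the bases within 250 upstream of an annotated start that lie outside the gene's own annotated exons. Capitals mark matches to the motifs searched.
ERRFI1, chr1:8026310-8026559: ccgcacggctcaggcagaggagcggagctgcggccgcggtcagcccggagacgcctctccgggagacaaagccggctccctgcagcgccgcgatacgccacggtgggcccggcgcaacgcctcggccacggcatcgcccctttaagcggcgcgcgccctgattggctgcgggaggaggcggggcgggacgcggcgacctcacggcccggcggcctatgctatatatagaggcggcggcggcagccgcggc
TFCP2L1, chr2:121285203-121285452: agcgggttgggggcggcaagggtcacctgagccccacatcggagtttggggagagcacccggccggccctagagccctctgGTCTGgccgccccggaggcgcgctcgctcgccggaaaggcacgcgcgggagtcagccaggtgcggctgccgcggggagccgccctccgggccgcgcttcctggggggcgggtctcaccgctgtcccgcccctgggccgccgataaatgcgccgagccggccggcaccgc
PER1, chr17:8152436-8152654: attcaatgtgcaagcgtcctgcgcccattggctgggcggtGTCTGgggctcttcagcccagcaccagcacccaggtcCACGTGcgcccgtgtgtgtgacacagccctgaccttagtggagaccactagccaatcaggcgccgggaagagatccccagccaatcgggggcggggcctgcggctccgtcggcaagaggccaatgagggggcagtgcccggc
FKBP5, chr6:35688943-35689165: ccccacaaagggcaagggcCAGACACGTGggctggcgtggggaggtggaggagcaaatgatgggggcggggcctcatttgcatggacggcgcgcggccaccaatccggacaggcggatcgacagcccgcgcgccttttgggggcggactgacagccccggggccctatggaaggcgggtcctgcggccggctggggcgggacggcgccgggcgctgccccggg

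The motifs were searched on both strands of the 250 upstream bases. The 13 windows of the 7 genes held no palindromic glucocorticoid response element (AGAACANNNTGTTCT) and no copy of its single arm (AGAACA). Of 35116 promoter windows of the same length, 0.00285% held the palindrome and 12.4% held the single arm, and the first of these motifs contains the second. The short SMAD-binding motif CAGAC was present in 1 window each of TFCP2L1, FKBP5, PER1 and TSC22D3, and 38.0% of all windows hold it. TFCP2L1 and PER1 have 1 window each, FKBP5 has 2 and TSC22D3 has 4, so the share is per window and not per gene. The E-box CACGTG, to which clock factors and MYC bind, is held by 6.34% of all windows. It was present 173 bases before the PER1 start and 227 bases before 1 of the 2 FKBP5 starts that have a window. At that FKBP5 start it shares its first base with a CAGAC match. The other FKBP5 window, chr6:35728584-35728833 next to the 5′ end of the locus, held no match and is not printed. No window of the 7 genes matched the palindromic SMAD element GTCTAGAC, the AP-1 site TGANTCA or the cAMP response element TGACGTCA. A match is a run of letters and not a measured binding site, and the absence of a match concerns these windows alone.

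The genes were expressed at very different levels. Scaled to 1 kb of merged exon (GENCODE v44), ERRFI1 was the most abundant in wt-GR cells under vehicle at 19270 normalized counts per kb. It was followed by TSC22D3 at 607, CEBPD at 530.3, FKBP5 at 368, PER1 at 176, TFCP2L1 at 97.9, SGK1 at 90.6, SCNN1A at 32.1 and KLF9 at 25.3. The libraries of TSC22D3 and CEBPD overlapped in this length-scaled level, as did those of TFCP2L1 and SGK1 and those of SCNN1A and KLF9, so the order within each of these pairs does not exceed the spread. The other neighbours in the order did not overlap. The merged exons of all annotated transcripts may be longer than the transcripts these cells make, which would lower a gene's scaled level, and the annotation behind the counts is not given in the sources used here.

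**Figure D1:**
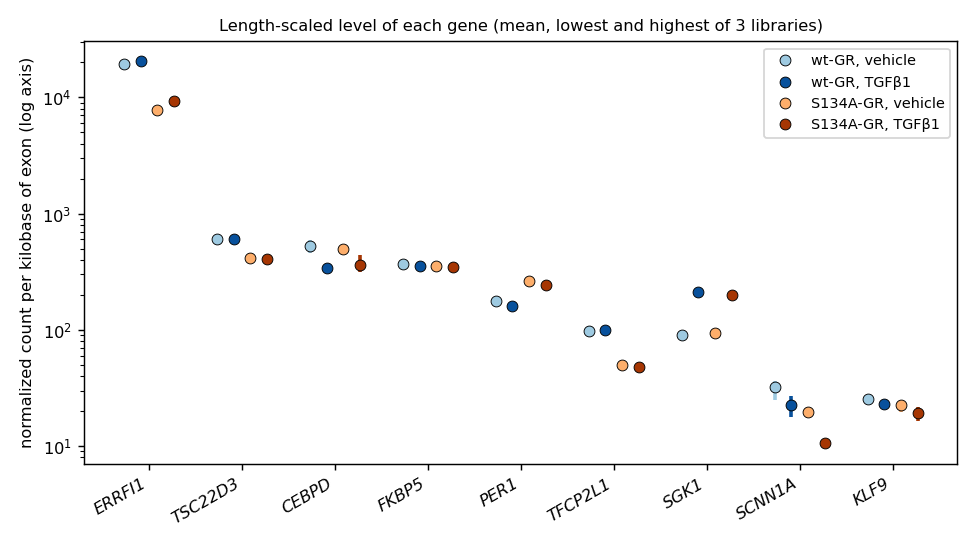
Length-scaled level of the 9 genes, in normalized counts per kb of merged exon on a log axis, for the 4 groups. Points are means and lines run from the lowest to the highest of 3 libraries. ERRFI1 sits far above the rest, at 19270 in wt-GR cells under vehicle, and KLF9 and SCNN1A are lowest in that group, at 25.3 and 32.1.

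Between the lines under vehicle, the 9 genes did not move as a group. An FDR under 0.05 was reached by 5, of which ERRFI1, TFCP2L1, SCNN1A and TSC22D3 were lower in S134A-GR cells and PER1 was higher. FKBP5, KLF9, SGK1 and CEBPD were not called. Over all 18579 genes tested, 51.5% were called in this comparison, 25.0% higher and 26.5% lower, and the share was 64.0% among the 13281 genes with a mean of at least 50 normalized counts, a level that the 9 genes all exceeded. Read against that background, 5 of 9 is close to the share among all genes. The median log2 difference was −0.17 over the 9 genes and 0.02 over all genes tested. Under TGFβ1 the same 5 genes were called in the same directions, where 48.8% of all genes were called (23.1% higher and 25.7% lower) and 61.1% of those with a mean of at least 50, and the median was −0.26 against 0.01 over all genes. The comparisons under vehicle and under TGFβ1 share no library, but they compare the same clones and take their spread from 1 fit. A log2 difference of at least 1 in size, beside the FDR, was reached by 1 of the 9 genes under vehicle and by 3 under TGFβ1, against 9.51% and 8.46% of all genes.

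**Figure D2:**
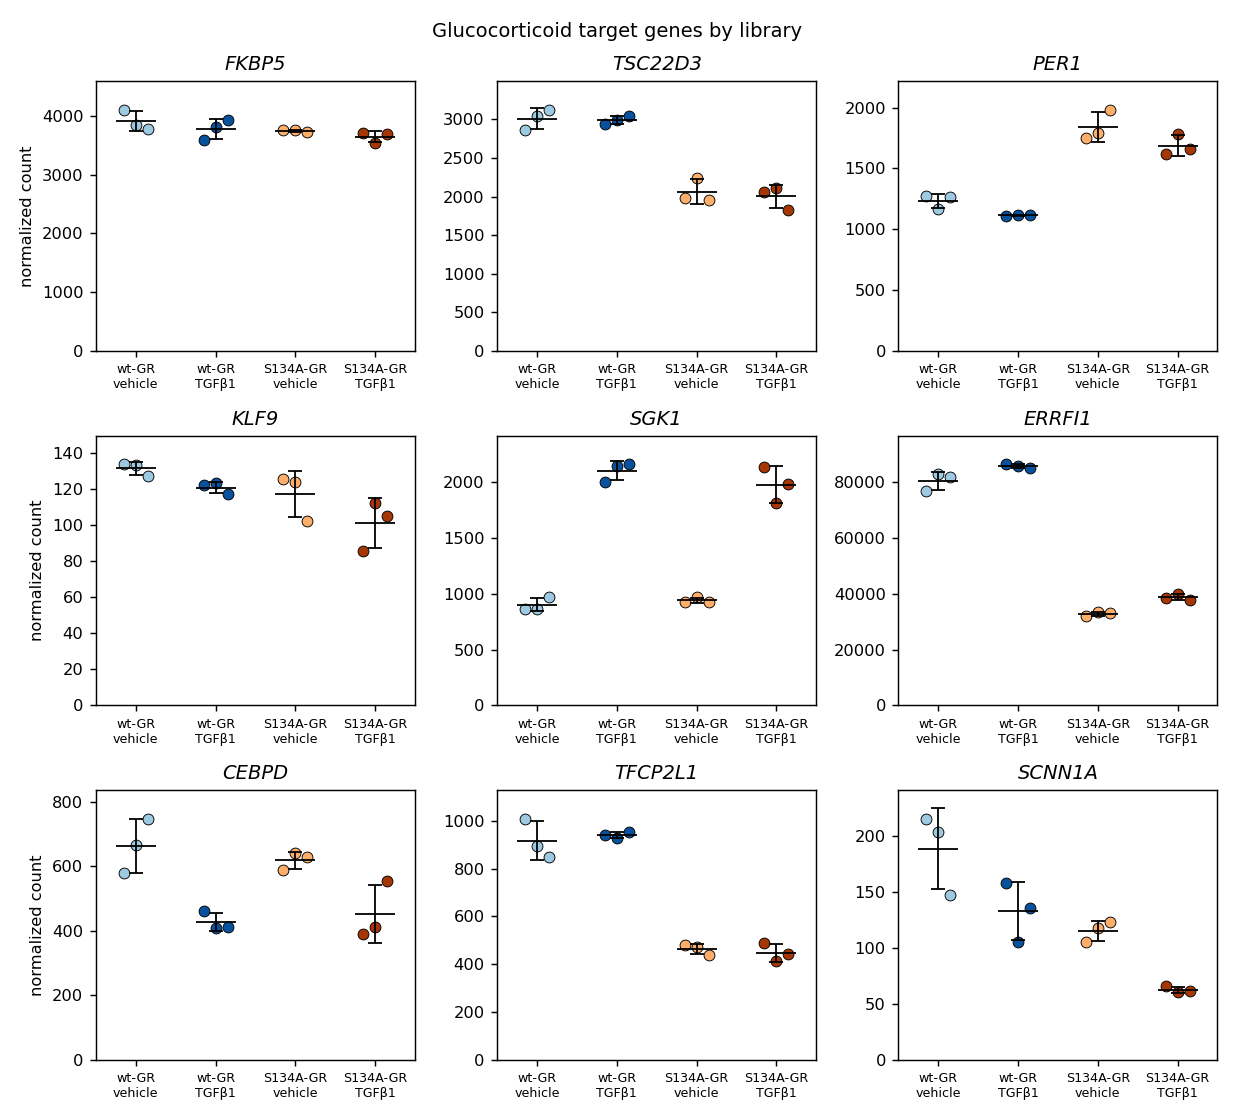
Normalized counts of the 9 genes in each of the 12 libraries, with each vertical axis starting at 0. Points are libraries, and horizontal bars and whiskers are the mean and SD of 3 libraries. ERRFI1, TFCP2L1 and TSC22D3 are lower and PER1 is higher in S134A-GR cells, SGK1 is higher under TGFβ1 in both lines, and FKBP5 stays between 3540 and 4106 in all libraries.

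FKBP5 encodes an HSP90 co-chaperone that lowers the affinity of GR for hormone, and its induction is a feedback on the receptor (chromosome 6, 35573585 to 35728583 of hg38, minus strand, as are all 9 genes). Its normalized count was 4106, 3850 and 3785 in wt-GR cells under vehicle, and 3766, 3762 and 3732 in S134A-GR cells. Under TGFβ1 it was 3592, 3810 and 3934 in wt-GR cells, with 3718, 3540 and 3698 in the S134A-GR libraries. The vehicle groups did not quite touch, with the lowest wt-GR library just above the highest S134A-GR library, whereas under TGFβ1 they overlapped. The log2 difference between the lines was −0.06 under vehicle (95% interval −0.15 to 0.036, adjusted p = 0.287 by limma) and −0.05 under TGFβ1 (−0.14 to 0.047, adjusted p = 0.400). The intervals thus allow S134A-GR levels from 0.898 to 1.03 times those of wt-GR under vehicle and from 0.905 to 1.03 times under TGFβ1. No other of the 9 genes varied so little, its 4 group means spanning 0.10 on the log2 scale.

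TSC22D3 encodes GILZ, a leucine zipper protein that carries part of the anti-inflammatory action of glucocorticoids (chromosome X, 107713221 to 107777342). Its normalized count in wt-GR cells was 2864, 3042 and 3123 under vehicle and 2937, 2996 and 3044 under TGFβ1. In S134A-GR cells the values were 1979, 2246 and 1954 under vehicle and 2064, 2116 and 1831 under TGFβ1. Every S134A-GR library was below every wt-GR library, and treatment left the groups of a line overlapping. The log2 difference between the lines was −0.55 under vehicle (standard error 0.0643, adjusted p = 6.22e-06) and −0.58 under TGFβ1 (adjusted p = 4.04e-06), or 1.46-fold and 1.5-fold lower. A short stretch of its exons, 71 bases or 1.43% of their merged length, also lies in exons of a gene on the opposite strand, and whether counting used strand is not given in the sources used here.

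ERRFI1 encodes MIG6, which binds and inhibits EGFR and its relatives, and was both the most abundant of the 9 genes and the one with the largest difference between the lines under vehicle (chromosome 1, 8004404 to 8026309). In wt-GR cells it was at 76955, 82918 and 81721 normalized counts under vehicle and at 86386, 85702 and 85178 under TGFβ1. In S134A-GR cells it was at 31940, 33361 and 33009 under vehicle and at 38427, 40001 and 37874 under TGFβ1. The lines were far apart, and within each line the TGFβ1 libraries were all above the vehicle libraries. S134A-GR levels were 2.46-fold lower under vehicle (log2 difference −1.30, standard error 0.0354, adjusted p = 6.64e-12) and 2.21-fold lower under TGFβ1 (−1.15, adjusted p = 2.59e-11). The promoter window of this gene, printed above, held none of the motifs searched. Exons of a long noncoding RNA on the opposite strand share 155 bases, 3.71% of the merged exon length.

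PER1, a repressor in the core circadian clock, was the exception in direction (chromosome 17, 8140472 to 8156506). Under vehicle its normalized count was 1269, 1166 and 1261 in wt-GR cells, against 1753, 1787 and 1980 in S134A-GR cells. With TGFβ1 it was 1111, 1115 and 1113 in wt-GR cells, with 1621, 1782 and 1660 in the S134A-GR libraries. All 6 S134A-GR libraries were above all 6 wt-GR libraries. The difference was 1.49-fold under vehicle (log2 0.58, standard error 0.0601, adjusted p = 2.03e-06) and 1.51-fold under TGFβ1 (log2 0.60, adjusted p = 1.58e-06). Its paralogs PER2 and PER3 were among the family members tested. Under vehicle PER2 was lower in S134A-GR cells by 0.28 on the log2 scale (adjusted p = 0.00427), and PER3 was higher by 0.29 (adjusted p = 0.00236).

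KLF9 and CEBPD, transcription factors that glucocorticoids induce in many tissues, did not differ between the lines by more than the test could detect. KLF9 (chromosome 9, 70384604 to 70414657) under vehicle was at 133.6, 133 and 127 normalized counts in wt-GR cells, against 125, 124 and 102 in the other line. Those groups did not overlap, but the log2 difference of −0.17 had a 95% interval of −0.49 to 0.15 (adjusted p = 0.363) and did not pass the test. Under TGFβ1, wt-GR libraries were at 122, 123 and 117 for KLF9 and S134A-GR libraries at 85.6, 112 and 105 (log2 difference −0.26, adjusted p = 0.159). CEBPD (chromosome 8, 47736913 to 47738164) overlapped between the lines under both treatments, with log2 differences of −0.09 (adjusted p = 0.573) and 0.07 (adjusted p = 0.700).

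TFCP2L1 encodes a transcription factor of the CP2 family that is known from kidney epithelium and pluripotent stem cells (chromosome 2, 121216587 to 121285202). Under vehicle it was at 1009, 896 and 848 normalized counts in wt-GR cells, against 481, 473 and 440.1 in the other line. Under TGFβ1 the values were 941, 928 and 952 in wt-GR cells, and the S134A-GR libraries held 489, 414 and 441. The highest S134A-GR library was well below the lowest wt-GR library, and treatment made no visible step in either line. Under vehicle the level was 1.97-fold lower in S134A-GR cells (log2 difference −0.98, standard error 0.0825, adjusted p = 2.59e-07) and 2.10-fold lower under TGFβ1 (−1.07, adjusted p = 1.16e-07). Its relative TFCP2 was lower by 0.20 (adjusted p = 0.00331) under vehicle.

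SCNN1A encodes the α subunit of the epithelial sodium channel, a target of glucocorticoids in lung and of aldosterone in kidney (chromosome 12, 6346843 to 6377730). Its level was low, and in wt-GR cells the vehicle libraries held 215, 203 and 147 normalized counts and the TGFβ1 libraries 158, 105 and 135. In S134A-GR cells it was at 106, 118 and 123 under vehicle and at 65.6, 60.7 and 61.5 under TGFβ1. The 3 S134A-GR libraries under TGFβ1 were the lowest of all 12, and the lines did not overlap under either treatment. S134A-GR levels were 1.61-fold lower under vehicle (log2 difference −0.69, standard error 0.182, adjusted p = 0.0056) and 2.08-fold lower under TGFβ1 (−1.05, adjusted p = 0.000238). Of its merged exon length 422 bases, 7.18%, also lie in exons of LTBR on the opposite strand, an abundant gene whose log2 difference was −0.10 under vehicle (adjusted p = 0.0816) and −0.19 under TGFβ1 (adjusted p = 0.00213). Without a stated strand setting, reads of these 2 genes in that stretch cannot be told apart. SCNN1G, the γ subunit, was listed with reads in only 1 of 12 libraries and was below the filter, and the β subunit was not analysed here.

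**Figure D3:**
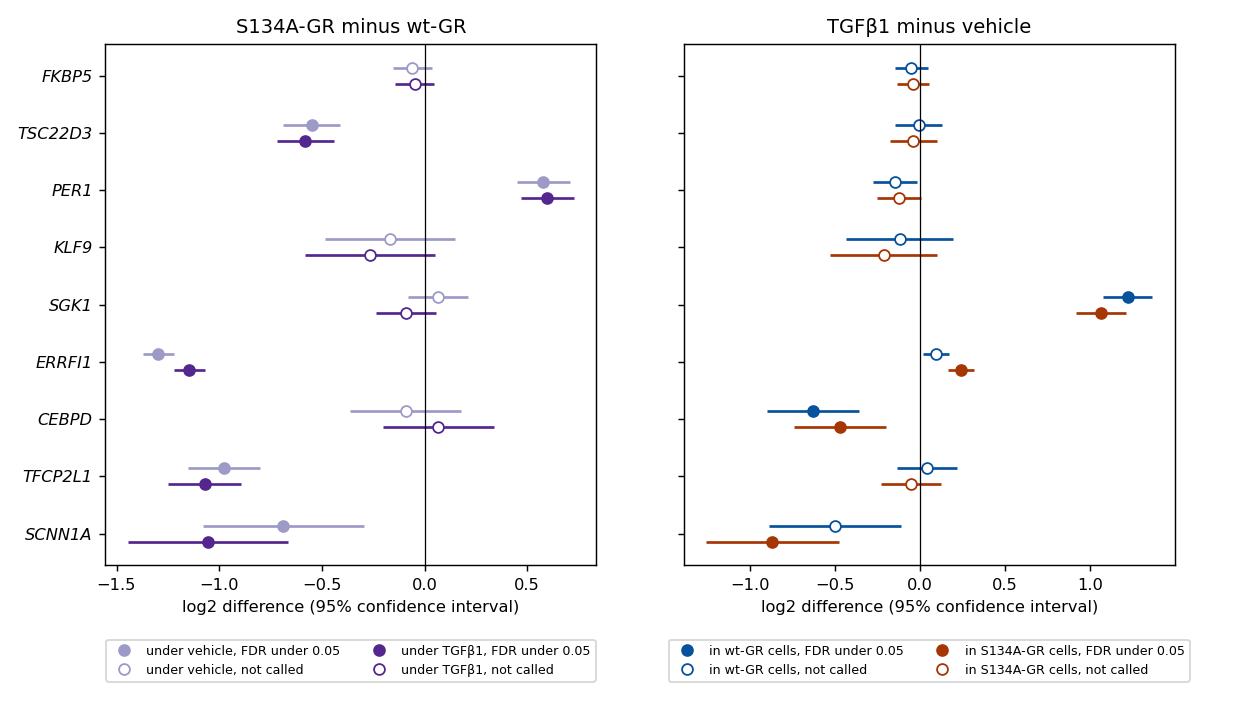
Log2 differences with 95% confidence intervals for the 9 genes, between the lines under each treatment (left) and between treatments in each line (right). Filled points have an FDR under 0.05 over all 18579 genes. ERRFI1 is at −1.30 and −1.15 on the left and SGK1 at 1.22 and 1.07 on the right, while FKBP5 is close to 0 in all 4 comparisons.

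TGFβ1 raised SGK1 and lowered CEBPD in both lines. In wt-GR cells these 2 of the 9 genes were called, where 21.0% of all genes tested were called (11.2% higher and 9.82% lower, and 27.7% of those with a mean of at least 50), and in S134A-GR cells 4 were called, where 18.7% of all genes were (10.0% higher and 8.69% lower, and 24.9% of those with a mean of at least 50). The additional 2 in S134A-GR cells were ERRFI1, which rose, and SCNN1A, which fell. The median log2 difference of the 9 genes was −0.05 in both lines, against −0.0046 and −0.0097 over all genes tested. SGK1 alone passed a log2 difference of at least 1 in size, in each line, as did 2.29% and 1.66% of all genes.

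SGK1, the serum- and glucocorticoid-regulated kinase, which acts downstream of PI3K and holds epithelial sodium channels at the membrane, had the largest response (chromosome 6, 134169248 to 134318112). In wt-GR cells it went from 868, 868 and 973 normalized counts under vehicle to 2005, 2150 and 2162 under TGFβ1. In S134A-GR cells it went from 931, 968 and 930.1 to 2141, 1811 and 1989. Vehicle and TGFβ1 libraries were widely separated in each line, and the lines overlapped at each treatment. The rise was 2.33-fold in wt-GR cells (log2 1.22, standard error 0.0679, adjusted p = 1.26e-08) and 2.09-fold in S134A-GR cells (log2 1.07, adjusted p = 6.26e-08). The difference between these responses was −0.16 (95% interval −0.36 to 0.051, adjusted p = 0.647). Between the lines SGK1 differed by 0.06 under vehicle (interval −0.081 to 0.21, adjusted p = 0.459) and by −0.09 under TGFβ1 (−0.24 to 0.055, adjusted p = 0.297).

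CEBPD encodes the bZIP factor C/EBPδ, an early responder to inflammation and to glucocorticoids. Its normalized count in wt-GR cells was 578, 666 and 748 under vehicle and 461, 409 and 412 under TGFβ1. In S134A-GR cells it was 590.04, 641 and 628 under vehicle and 389.9, 412 and 556 under TGFβ1. Treated libraries were below untreated ones in each line, although 1 treated S134A-GR library came close to the vehicle range. CEBPD fell by 0.63 on the log2 scale in wt-GR cells (adjusted p = 0.00244) and fell by 0.47 in S134A-GR cells (adjusted p = 0.018). The call in S134A-GR cells was lost when either of 2 vehicle libraries (replicate 2 or 3, adjusted p = 0.0622 and 0.0571) or either of 2 TGFβ1 libraries (replicate 1 or 2, adjusted p = 0.0763 and 0.0694) was left out, and when only the S134A-GR groups were fitted (adjusted p = 0.0827).

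ERRFI1 rose by 0.24 on the log2 scale with TGFβ1 in S134A-GR cells (95% interval 0.17 to 0.32, adjusted p = 0.000222), and its difference of 0.09 in wt-GR cells was not called (0.015 to 0.17, adjusted p = 0.0868). SCNN1A fell by 0.87 in S134A-GR cells (adjusted p = 0.00372), and its difference of −0.50 in wt-GR cells was not called (−0.89 to −0.11, adjusted p = 0.067). That last value passed the threshold when replicate 3 of vehicle (adjusted p = 0.0184) or replicate 1 of TGFβ1 (adjusted p = 0.0444) was left out of the wt-GR cells, and with DESeq2 (adjusted p = 0.0391). Whether the lines responded differently was tested for each gene, and none of the 9 passed in limma, edgeR or DESeq2, where 0.414% of all genes passed in limma. Of the 9, ERRFI1 alone was under 0.05 before adjustment (difference 0.15, adjusted p = 0.356 by limma). For SCNN1A the difference was −0.37 with an interval of −0.92 to 0.18, which is too wide to tell equal from unequal responses. FKBP5, TSC22D3, PER1, KLF9 and TFCP2L1 were not called for treatment in either line, with log2 differences between −0.21 and 0.04.

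The closest patterns over the 12 libraries were found for the 4 genes whose group means spanned at least 1 on the log2 scale. SGK1 followed PSMD2, a proteasome subunit gene (Pearson's r = 0.990). ERRFI1 followed LIPG, an endothelial lipase gene (r = 0.997), and SPATS2L (r = 0.996), and TFCP2L1 followed KDELC2 (r = 0.993) and the protease gene CTSS (r = 0.992). SCNN1A had weaker partners, SYNJ2 and SFXN5, both at r = 0.965. These are descriptions over 12467 candidate genes, and a high r arises for any pair of genes that shares the step between lines or treatments: 1000 genes had r above 0.95 with ERRFI1 and 839 with TFCP2L1, against 97 with SGK1 and 16 with SCNN1A.

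The genes next to the 5 that differed between the lines were examined to see whether the surrounding stretch of chromosome moved with them. The 10 nearest tested genes of ERRFI1 had a median log2 difference of −0.12 under vehicle, with 3 called lower and 1 higher, and with PARK7 on one side at −0.04 and SLC45A1 on the other at −0.44, against −1.30 for ERRFI1 itself. For TFCP2L1 the median of the neighbours was −0.26, and 7 of 10 were called lower, where 26.5% of all genes were. The neighbours of PER1 had a median of 0.28, 6 of 10 were called higher and none lower, where 25.0% of all genes were higher, and HES7 next to it was higher by 1.32. SCNN1A lay among genes with a median of 0.38 while it was itself lower, and of its 10 neighbours 6 were called higher and 2 lower. The neighbours of TSC22D3 had a median of −0.13, with 4 of 10 called lower and 1 higher. The genes next to it on either side, PRPS1 at 0.07 and MID2 at −0.20, were not called. The lowest of the 10, named after their values were seen, were NUP62CL at −4.54 and VSIG1 at −3.13. Copy number was not measured here.

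**Figure D4:**
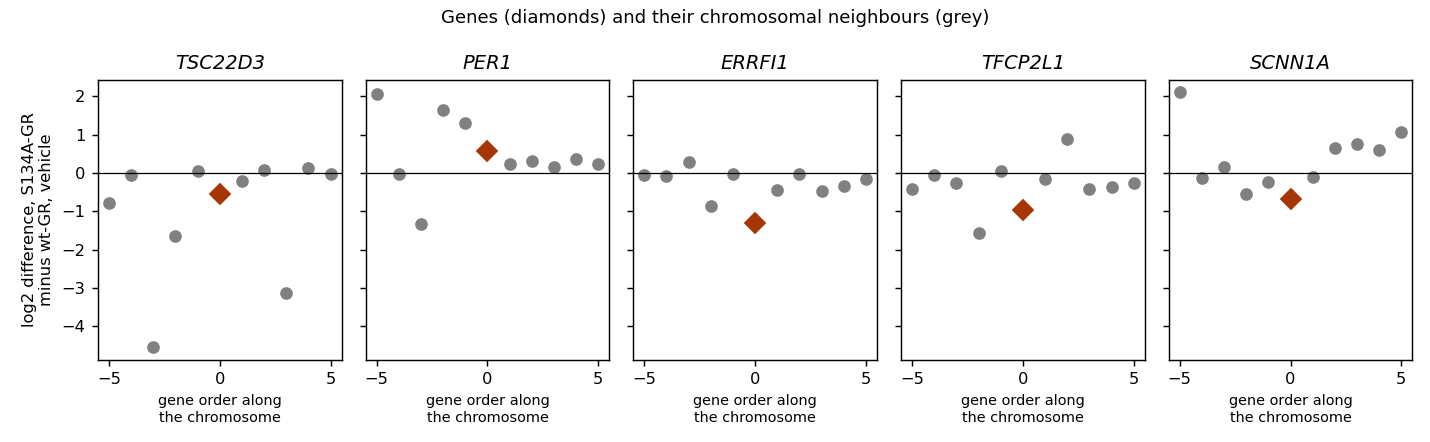
Log2 difference under vehicle, S134A-GR minus wt-GR, for the 5 called genes (diamonds, position 0) and for the 5 tested genes on each side in chromosomal order (grey points). ERRFI1, at −1.30, lies below all 10 of its neighbours, whereas PER1, at 0.58, lies among neighbours with a median of 0.28.

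Other genes that glucocorticoids induce were mixed in direction, and genes that they repress were mostly lower in S134A-GR cells under vehicle. Of 24 other genes that glucocorticoids induce, under vehicle 4 were higher, 9 lower and 11 not called in S134A-GR cells, with a median of −0.04, and 13 of 24 is close to the 51.5% called over all genes. The largest differences among those with a mean of at least 100 normalized counts were in BIRC3, an inhibitor of apoptosis (−1.40, adjusted p = 1.51e-07), DDIT4, an inhibitor of mTORC1 (−0.80, adjusted p = 1.91e-06), and ANGPTL4, an inhibitor of lipoprotein lipase (−0.76, adjusted p = 1.79e-07). DUSP1, NFKBIA, GLUL and ZFP36 were chosen for mention after their values were seen, and their differences lay between −0.03 and 0.05 with no call under vehicle. Under TGFβ1, DUSP1 was called lower in S134A-GR cells (−0.15, adjusted p = 0.0194). KLF15 and RASD1, also chosen after their values were seen, went opposite ways: KLF15 was higher by 1.42 and RASD1 lower by 1.71. Of 10 genes that glucocorticoids repress, 1 was higher and 7 lower under vehicle, with a median of −0.74. Over all genes 25.0% were higher and 26.5% lower, and 64.0% of those with a mean of at least 50 were called. CCL2, 1 of the 10, did not exceed 9.48 normalized counts in any library, so its lack of a call says little. Under TGFβ1, 5 of the 10 were lower, 0 higher and 5 not called, where 23.1% of all genes were higher and 25.7% lower. The median of the list was then −0.55. Under vehicle this list was led by ICAM1 (−3.83) and the collagenase gene MMP1 (−1.71). MMP1 and BIRC3 lie near each other on chromosome 11, starting at 102789401 and 102317484 of hg38. Whether that stretch of chromosome moved with them was not tested.

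With TGFβ1 in wt-GR cells, 5 of the 24 other induced genes rose, 3 fell and 16 were not called. The counts were the same in S134A-GR cells, but the genes were not all the same. DUSP1 (higher) and BIRC3 (lower) were called in wt-GR cells alone, and MT2A (higher) and MAOA (lower) in S134A-GR cells alone. The shares called over all genes were 21.0% and 18.7%, and 27.7% and 24.9% among genes with a mean of at least 50. FAM107A and CDKN1C, which belong to this list, were under 50 in every group mean. ANGPTL4 rose by 1.94 in wt-GR and by 2.29 in S134A-GR cells, SPSB1 rose by 0.82 and 0.52, and PDK4, which restrains pyruvate dehydrogenase, fell by 1.24 and 1.00. Among the repressed genes IL11 alone was called, and it rose by 1.22 and 0.98. None of the 24 and none of the 10 was called for a difference between the responses.

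**Figure D5:**
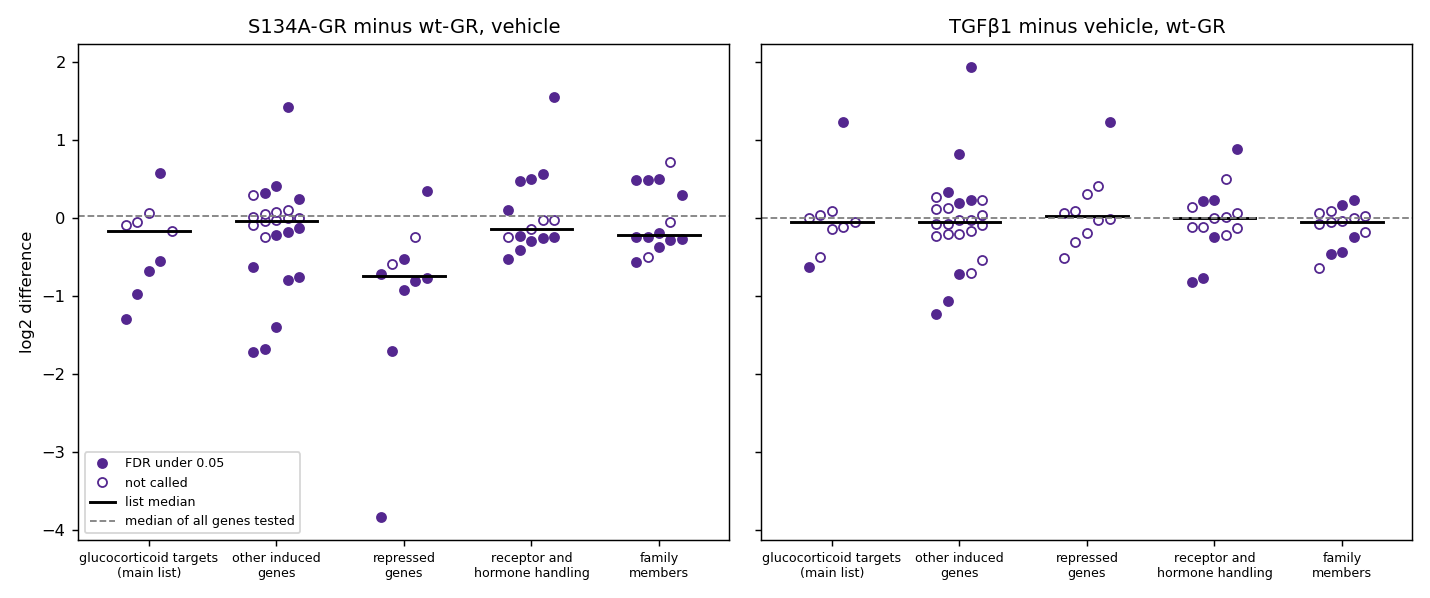
Log2 differences of the 9 genes and of 4 further lists, between the lines under vehicle (left) and between TGFβ1 and vehicle in wt-GR cells (right). Black bars are list medians and the dashed line is the median of all 18579 genes tested. Induced genes lie on both sides of the line, and the repressed list has the lowest median on the left, −0.74.

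Among 15 tested genes that handle the receptor and its hormone, under vehicle 5 were higher in S134A-GR cells and 6 lower, where 51.5% of all genes and 64.0% of those with a mean of at least 50 were called. HSD11B2, which belongs to this list, was under 50 in every group mean. NR3C2, which encodes the mineralocorticoid receptor that shares ligands and DNA elements with GR, was higher by 0.56 under vehicle and by 0.81 under TGFβ1. FKBP4, the co-chaperone that opposes FKBP5 on the receptor, was higher by 0.49 and 0.39, and the coactivator gene NCOA1 was lower by 0.53 under vehicle. With TGFβ1, NR3C2 fell by 0.82 in wt-GR and by 0.57 in S134A-GR cells. Of the 14 tested paralogs and subunits closest to the 9 genes, 4 were higher and 7 lower under vehicle, against the same 51.5% and 64.0%, among them TSC22D1 (−0.56), which was lower like TSC22D3, and CEBPA (0.49). SGK2 and SGK3, also in this list, were under 50 in every group mean.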

How the data were processed

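RNA-seq values of 12 libraries were used. Reads were trimmed with Trimmomatic and aligned to hg38 with HISAT2, counted with featureCounts (Subread), checked with FastQC 0.11.7 and, by the authors, divided by DESeq2 1.22.2 size factors. The deposited values are therefore a signal, normalized counts per gene symbol, and in every library 100% were whole multiples of 1 read within a tolerance of 0.01, which recovered the reads. Gene annotation and strand setting are not given in the sources used here.

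Genes with at least 10 reads over all libraries (18579) were fitted as log2 of the value plus 1 with limma 3.58.1 in R 4.3.3 (4 group means, trended eBayes, Benjamini-Hochberg over all genes). A difference of low genes is understated on this scale. A gene was called at an FDR under 0.05. The members and gene lists were chosen with earlier results of these data known. Named genes were the members, the 3 largest called differences of each list (mean of at least 100), the 2 closest genes by Pearson's r, and the nearest chromosomal neighbours. Some further genes were named after their values were seen. Alternatives were edgeR 4.0.16 and DESeq2 1.42.0 on recovered reads, other pseudocounts, filters and scaling, no trend, a replicate block, only the groups compared, a fold cutoff and each library left out. On simulated 2-fold changes of 200 genes with a mean of at least 100, 98.5% were recovered for the lines under vehicle. The share was 97% for TGFβ1 in wt-GR cells and 91.5% for the difference of responses. Smaller changes and lower genes were not simulated. Read floors cover counting error only. ZBTB16, SCNN1B and PGR were not analysed here. Some genes that this rule names are not reported here.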

Additional observations from a re-analysis of the deposited data

How the results depend on the processing

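The direction of every called difference of the 9 genes held under all alternatives run. Counts of calls stayed within 1.5 times of 5, 5, 2, 4 and 0 (lines under vehicle, lines under TGFβ1, TGFβ1 in wt-GR cells, TGFβ1 in S134A-GR cells and difference of responses) except with an absolute log2 difference of at least 1 required, which left 1 gene (ERRFI1), 3 (ERRFI1, TFCP2L1 and SCNN1A), 1 (SGK1) and 1 (SGK1). With libraries left out in turn the counts were 5 to 5, 5 to 5, 2 to 3, 3 to 4 and 0 to 0. Of single values, 1018 kept their side of the threshold, 5 lost it (CEBPD under TGFβ1 in S134A-GR cells) and 3 gained it (SCNN1A under TGFβ1 in wt-GR cells), and the cause was not tested.

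With a replicate block the counts were 5, 5, 2, 4 and 0, as without it. Libraries that share a number were not alike (mean r of deviations 0.000891 over 18 pairs, range −0.155 to 0.154), so the numbers were not treated as pairs. TMM scaling shifted the median of all genes by 0.018 at most. With 3 libraries a group, intervals of the low genes KLF9 and SCNN1A are wide. Over all genes, edgeR on the recovered reads called 9452, 9106, 3892, 3450 and 78 genes in these comparisons, against 9569, 9070, 3910, 3475 and 77 by limma. DESeq2 called 211 for the difference of responses.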
